A study of Mus musculus with 24 samples.

Results

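The 10 genes described here, Ulk1, Becn1, Map1lc3a, Map1lc3b, Gabarapl1, Sqstm1, Bnip3, Lamp2, Ctsl and Tfeb, belong to the autophagy and lysosome pathway, and were picked by symbol from the 18669 genes counted. They were chosen with earlier results of these data known. All 10 passed the filter on low counts, as did 13754 genes in all. mRNA was sequenced from quadriceps femoris, a thigh muscle, of 24 mice, with 2 mice in each of 12 groups. All mice were on a CBA x C57BL/6 F1 background and were killed 4 h after treatment. Wild type and R6/2 mice were 12 weeks old. R6/2 mice carry a transgene for exon 1 of mutant human HTT, the Huntington's disease gene, on top of their own unchanged Hdh alleles. Hsf1-/- mice are homozygous knockouts for heat shock factor 1, the transcription factor that turns on the chaperone genes after heat. They were 10 weeks old in the heat shock experiment and 8 weeks old in the HSP990 experiment. Heat shock (HS) held anaesthetised mice at 41.5 °C for 15 min, and control mice were held at 36.9 °C for 21 min. HSP990, an inhibitor of the chaperone HSP90, was given at 12 mg/kg by mouth, and vehicle mice received the carrier by the same route. Control and vehicle mice are together called untreated. Nothing in the labels pairs the mice of different groups, so the p-values measure the spread between the 2 mice of a group, pooled over the 12 groups.

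Macroautophagy encloses cytoplasm in a double membrane, the autophagosome, and delivers it to lysosomes for digestion. The kinase Ulk1 starts the process, Becn1 belongs to the lipid kinase complex that nucleates the membrane, the LC3 and GABARAP proteins are attached to the growing membrane, and receptors such as Sqstm1 and Bnip3 bind cargo to them. Lamp2 and Ctsl act in the lysosome, and Tfeb is a transcription factor that switches on many genes of the whole pathway. In skeletal muscle, autophagy is known for its rise in fasting and denervation, where transcripts of the pathway also increase.

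Sequence before the transcription start was held for 8 of the 10 genes in the RefSeq promoter table (build GRCm38.p6), all but Map1lc3a and Becn1. Shown are the 250 bases upstream of the start of 3 genes that differed between R6/2 and wild type mice (Ctsl, Map1lc3b and Lamp2) and of Bnip3, which had the lowest R6/2 levels relative to wild type. They are written 5′ to 3′ on the strand of the gene, from chr13:64370521-64370770 (minus strand) for Ctsl, chr8:121590188-121590437 (plus strand) for Map1lc3b, chrX:38456461-38456710 (minus strand) for Lamp2 and chr7:138909507-138909756 (minus strand) for Bnip3. Capitals mark the letters CACGTG, the core that Tfeb and other helix-loop-helix factors bind, TGATGNAA read on the other strand, an ATF4 and C/EBP type motif, and CCAAT or its reverse complement.
Ctsl: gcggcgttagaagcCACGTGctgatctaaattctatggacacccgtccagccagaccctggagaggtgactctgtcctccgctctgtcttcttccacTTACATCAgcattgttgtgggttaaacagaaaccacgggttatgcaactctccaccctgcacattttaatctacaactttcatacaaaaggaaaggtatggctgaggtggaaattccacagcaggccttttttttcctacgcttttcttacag
Map1lc3b: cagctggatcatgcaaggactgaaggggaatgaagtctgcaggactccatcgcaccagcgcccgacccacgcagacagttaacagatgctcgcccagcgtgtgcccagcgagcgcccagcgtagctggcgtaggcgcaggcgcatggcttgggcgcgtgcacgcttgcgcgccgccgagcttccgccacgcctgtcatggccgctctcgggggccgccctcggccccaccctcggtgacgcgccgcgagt
Lamp2: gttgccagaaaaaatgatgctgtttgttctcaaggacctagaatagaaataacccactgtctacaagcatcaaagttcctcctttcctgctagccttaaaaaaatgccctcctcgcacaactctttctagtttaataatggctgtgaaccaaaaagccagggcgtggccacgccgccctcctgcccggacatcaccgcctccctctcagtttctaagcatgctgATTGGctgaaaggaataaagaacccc
Bnip3: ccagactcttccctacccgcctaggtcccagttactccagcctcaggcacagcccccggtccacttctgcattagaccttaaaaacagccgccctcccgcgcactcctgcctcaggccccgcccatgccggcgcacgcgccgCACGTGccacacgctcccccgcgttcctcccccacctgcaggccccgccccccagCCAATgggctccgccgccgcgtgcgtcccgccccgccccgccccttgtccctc
CACGTG stood 236 bases before the start in Ctsl and 108 bases before it in Bnip3, and 6.02% of 32851 promoters of the same length held it on either strand. Ctsl also held TGATGNAA (3.45% of promoters), and Bnip3 and Lamp2 held CCAAT (33.8%). None of the 10 promoters listed for these 8 genes held TCACGTGA, which contains CACGTG (0.785% of all promoters), TTCNNGAA, the paired unit of heat shock elements (7.17%), the forkhead motif GTAAACA (3.17%) or TGACNNNGC, the core of antioxidant elements (10.2%). These are matches of letters only.

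The libraries held 22450177 to 46599238 counts. Hsf1 was at 52.9 to 68.5 CPM (counts scaled to a library of 1000000, with TMM factors that correct for composition) in wild type, 45.3 to 53.7 in R6/2 and 21.1 to 29.0 in Hsf1-/- mice, so counts for the gene remained in the knockout. The chaperone Hspa1a was at 7.23 ± 5.45 CPM (mean ± SD, n = 2) in wild type control mice and at 1012 ± 72.1 in wild type HS mice, and at 2.73 ± 0.861 and 2.45 ± 0.77 in the same groups of Hsf1-/- mice. The 12 markers of muscle fibres, such as Acta1 and Ckm, summed to 205100 to 257700 CPM in wild type and 202500 to 274500 in Hsf1-/- mice but to 45510 to 92760 in R6/2 mice, and the TMM factors were 0.808 to 0.924, 0.837 to 0.954 and 1.19 to 1.395 in the same order. Counts of 4 Y-linked genes (Ddx3y, Eif2s3y, Uty and Kdm5d) were 0 to 4 in the wild type and R6/2 mice of the heat shock experiment and 3916 to 9392 in the other 16 mice. The Hsf1-/- and wild type mice of the heat shock experiment therefore differed in Y-linked expression and in age as well as in genotype, and these cannot be told apart there. In bulk tissue, fewer cells of one kind and less RNA in each of them cannot be told apart either.

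Per kilobase of exon, the wild type level was highest for Sqstm1, at 266 ± 34.6 CPM per kb (mean ± SD over 8 mice), followed by Map1lc3b at 107 ± 11.4 and Ctsl at 78.1 ± 12.4. Gabarapl1 (57.6 ± 13.1) and Map1lc3a (41.5 ± 5.15) came next and overlapped in their ranges. Bnip3 (33.0 ± 7.06), Ulk1 (32.2 ± 4.7) and Tfeb (26.2 ± 5.68) did not differ from one another beyond their spread. Becn1 was at 12.8 ± 0.675 and Lamp2 was lowest, at 5.16 ± 0.557. The length used was that of the merged exons of all transcripts of a gene, 7065 bases for Becn1, 9552 for Lamp2 and 1181 for Map1lc3a. The annotation used for counting is not given, so this order depends on the lengths chosen. Before division by length, Lamp2 and Map1lc3a had means of 49.25 and 49.01 CPM in wild type. For Bnip3 51.3% and for Map1lc3b 40.8% of the 40-base words of the exons occurred elsewhere in mm9, so their counts may hold reads of near-identical copies or lack reads of their own. For Ulk1 the share was 10.8%, and for the other 7 genes it was 2.7% or less. Sqstm1, Map1lc3a, Gabarapl1 and Becn1 overlap a gene on the opposite strand and Map1lc3b overlaps Gm20388 on its own strand, and whether the counting used strand is not given in the sources used here.

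**Figure D1:**
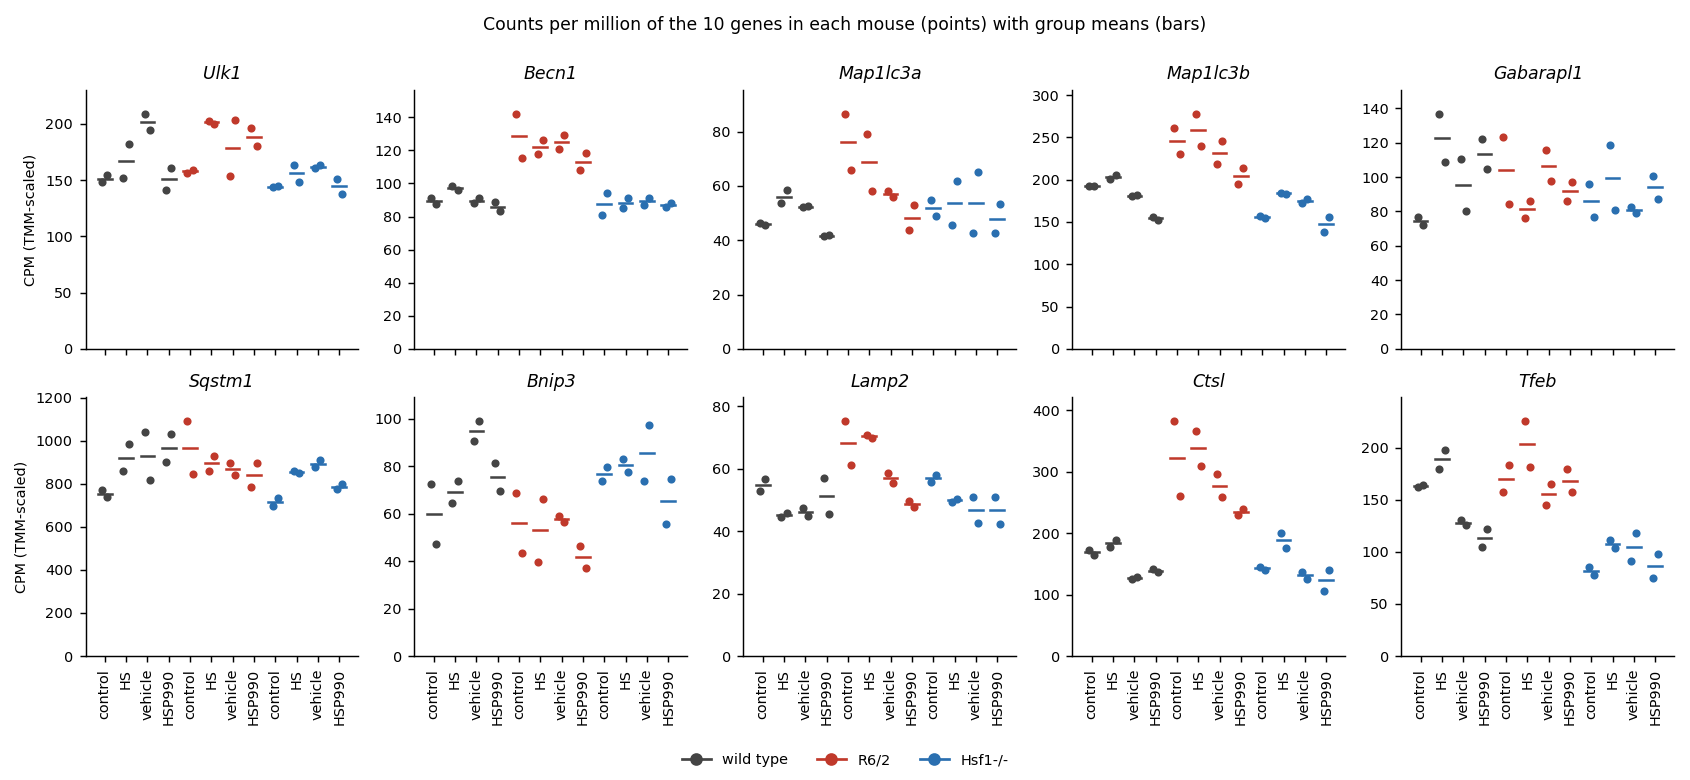
Level of each of the 10 genes (y axis, TMM-scaled CPM from 0) in each mouse (points) and group mean (bars), for 4 treatments in wild type (grey), R6/2 (red) and Hsf1-/- mice (blue). Ctsl and Becn1 were higher in each of the 8 R6/2 mice than in any of the 8 wild type mice, and the 8 Hsf1-/- mice had 75.1 to 118 CPM of Tfeb.

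Whether HS or HSP990 changed the pathway was asked first. None of the 10 genes passed the test in any of the 6 responses (treated minus matched untreated mice of one genotype), and 59 of 60 log2 fold changes lay within 0.5 of 0. By edgeR's quasi-likelihood test, 9 of the 60 had an unadjusted p below 0.05. Of all 13754 genes, 1627, 1117 and 1211 did so in the HS responses of wild type, R6/2 and Hsf1-/- mice. In the HSP990 responses these were 1816, 1306 and 1304. Among all genes, 2.06% were called in the HS response of wild type, 0.0436% of R6/2 and 0.00727% of Hsf1-/- mice, and 1.85%, 1.43% and 0.218% in the HSP990 responses. With DESeq2, 1 of the 10 was called in the HS response of wild type (Gabarapl1) and 1 in the HSP990 response of wild type (Ulk1), and 0 in the other 4. DESeq2 called 542, 127 and 161 of all genes in the HS responses of wild type, R6/2 and Hsf1-/- mice, and 542, 376 and 142 in the HSP990 responses. The standard errors were 0.1 to 0.25 on the log2 scale, and the 95% intervals lay within 1 of 0 for all but 2 of the 60 values. These were Gabarapl1 in the HS response of wild type, where the interval reached 1.17, and Bnip3 in the HSP990 response of R6/2, where it reached −1.004.

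Gabarapl1, which encodes a GABARAP-type membrane tag (NCBI gene 57436, mm9 chr6:129483218-129492349), had the largest response. It was at 76.9 and 72.3 CPM in the 2 wild type control mice and at 137 and 109 in the 2 wild type HS mice. The groups did not overlap, and the log2 fold change was 0.72 ± 0.21 (SE, adjusted p = 0.097). The adjusted p was 0.0372 with a replicate block, 0.0199 in a fit of these groups alone and 0.0293 with DESeq2, and leaving out any mouse gave no call. In R6/2 mice the control values were 123 and 84.4 CPM and the HS values 76.4 and 86.3, which overlap, with a log2 fold change of −0.35 ± 0.21 (adjusted p = 0.70). The response of R6/2 minus that of wild type was −1.07 ± 0.30 on the log2 scale (adjusted p = 0.56), with 0.0727% of all genes called in this difference. Hsf1-/- control mice had 95.7 and 76.9 CPM and Hsf1-/- HS mice 118 and 80.7, also overlapping (log2 fold change 0.21 ± 0.21, adjusted p = 0.86).

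The initiating kinase Ulk1 (gene 22241, mm9 chr5:111213507-111239116) came nearest to the threshold after HSP990. It was at 209 and 195 CPM in wild type vehicle mice and at 142 and 161 in wild type HSP990 mice, with no overlap, and the log2 fold change was −0.42 ± 0.12 (adjusted p = 0.107, and 0.0347 with DESeq2). Control mice of the same genotype, at 148 and 154 CPM, lay at the level of the HSP990 mice rather than that of the vehicle mice. Vehicle minus control was 0.42 ± 0.12 for Ulk1 in wild type (adjusted p = 0.17, and 0.0444 with DESeq2). There 0.24% of all genes and 0 of the 10 were called by edgeR, and 1 of the 10 by DESeq2. At an unadjusted p below 0.05 there were 5 of the 10 and 1939 of all genes. In R6/2 and Hsf1-/- mice 0 of the 10 were called between vehicle and control either, against 0.0654% and 0% of all genes, and 0 by DESeq2. At an unadjusted p below 0.05 there were 0 and 3 of the 10, and 1172 and 966 of all genes. Control mice had been anaesthetised and held at 36.9 °C for 21 min, and vehicle mice had been given the carrier by mouth. Vehicle and control mice of wild type and R6/2 also differed in their Y-linked counts, and those of Hsf1-/- mice in age (8 and 10 weeks). The part of these in the differences was not tested. In R6/2 and Hsf1-/- mice the HSP990 change of Ulk1 was 0.07 ± 0.12 and −0.17 ± 0.12.

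The 2 treatments and the genotypes were also set against each other. The HS response minus the HSP990 response was called for 0 of the 10 genes in each genotype, against 2.38%, 1.63% and 0.145% of all genes in wild type, R6/2 and Hsf1-/- mice. The largest such differences in wild type were 0.62 ± 0.29 for Map1lc3a (adjusted p = 0.329) and 0.56 ± 0.18 for Ulk1 (adjusted p = 0.114). Counts at an unadjusted p below 0.05 were 4, 0 and 4 of the 10 in the same order of genotypes, and 2050, 1448 and 1494 of all genes. DESeq2 called 1, 0 and 0 of the 10, and 648, 442 and 179 of all genes. Each response was taken within its own experiment, but only the mice of the heat shock experiment were anaesthetised and held on temperature as part of the design. The experiments also differed in Y-linked counts for wild type and R6/2 mice and in age for Hsf1-/- mice (10 and 8 weeks). These cannot be told apart from the treatment in this difference. Differences between genotypes in a response were called for none of the 10 in the 4 interactions, by edgeR or by DESeq2. For HS and HSP990 in R6/2 minus wild type, 1 and 1 of the 10 had an unadjusted p below 0.05, and 669 and 981 of all genes. In Hsf1-/- minus wild type these were 0 and 0 of the 10, and 511 and 948 of all genes. DESeq2 called 34 and 49 of all genes for R6/2 and 40 and 118 for Hsf1-/- mice. All genes were called at 0.16% for HS in Hsf1-/- minus wild type, at 0.422% for HSP990 in Hsf1-/- minus wild type, and at 0% for HSP990 in R6/2 minus wild type.

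**Figure D2:**
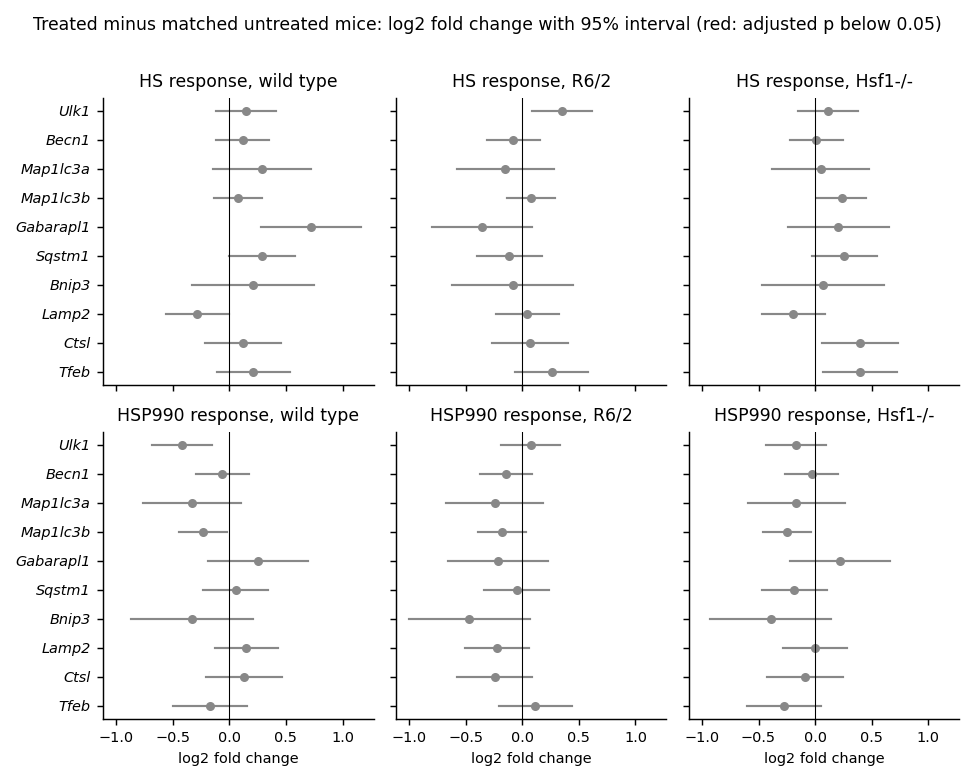
log2 fold change (x axis) of the 10 genes after HS (top) and HSP990 (bottom) in wild type, R6/2 and Hsf1-/- mice, with 95% intervals from the edgeR fit, where red would mark an adjusted p below 0.05. All 60 points are grey, and the value farthest from 0 is 0.72 for Gabarapl1 in wild type HS mice.

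In contrast to the treatments, the R6/2 genotype went with higher levels of several of these genes. In untreated R6/2 minus wild type, 5 of the 10 passed the test, all higher (Ctsl, Becn1, Map1lc3b, Map1lc3a and Lamp2), where 30.5% of all genes were called and 15.1% were called higher. The median log2 fold change of the 10 was 0.32, and that of all genes tested 0.05. Since the 10 were chosen with earlier results of these data known, neither contrast with all genes is a test of the pathway. Gabarapl1 (0.32 ± 0.15, adjusted p = 0.114), Tfeb (0.17 ± 0.11), Sqstm1 (0.13 ± 0.10), Ulk1 (−0.06 ± 0.09) and Bnip3 (−0.41 ± 0.18, adjusted p = 0.0997) did not pass. Without wild type control mouse 1, wild type vehicle mouse 2 or R6/2 vehicle mouse 1 the count was 3, and over all mice left out it was 3 to 6. Scaled by library size only, 9 of the 10 were called higher and 8876 of all genes were called, as the median of all genes moved from 0.05 to 0.66.

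Ctsl showed the largest difference. It encodes cathepsin L, a cysteine protease of the lysosome (gene 13039, mm9 chr13:64464522-64471614). The control mice had 172 and 165 CPM in wild type and 383 and 261 in R6/2, and the vehicle mice had 125 and 129 in wild type and 296 and 258 in R6/2. Each untreated R6/2 mouse was above each untreated wild type mouse. The log2 fold change was 1.03 ± 0.11 (SE), a 2.04-fold difference (adjusted p = 6.45e-06). It was 0.93 ± 0.16 in the control mice and 1.13 ± 0.16 in the vehicle mice alone, and it was called with any mouse left out (0.88 to 1.16). Relative to the median of all genes under library-size scaling it was 0.98. Macrophages also make cathepsin L. Their 12 markers, all of which were detected, summed to 78.0 to 128 CPM in untreated wild type and 114 to 138.5 CPM in untreated R6/2 mice, and their part in the difference was not tested.

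Becn1 (beclin 1, gene 56208, mm9 chr11:101147266-101163600) varied least between mice of a genotype. It was at 91.4 and 87.4 CPM in wild type control and 88.1 and 91.3 in wild type vehicle mice, against 142 and 115.5 in R6/2 control and 121 and 129 in R6/2 vehicle mice. The untreated groups did not overlap, and the log2 fold change was 0.50 ± 0.08 (adjusted p = 0.000141), called with any mouse left out. Over all treatments Becn1 ranged from 83.5 to 98.3 CPM in wild type, from 108.0 to 142 in R6/2 and from 80.9 to 94.0 in Hsf1-/- mice.

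Map1lc3b and Map1lc3a encode LC3B and LC3A, which mark autophagosomes. Map1lc3b (gene 67443, mm9 chr8:124114368-124121947) was at 193 and 193 CPM in wild type control, 180.5 and 182 in wild type vehicle, 261 and 230.2 in R6/2 control and 218 and 246 in R6/2 vehicle mice. The groups did not overlap, with a log2 fold change of 0.35 ± 0.07 (adjusted p = 0.00133) that was called with any mouse left out. Map1lc3a (gene 66734, mm9 chr2:155102033-155103809) was at 46.3 and 45.5 CPM in wild type control and 52.1 and 52.7 in wild type vehicle mice, and at 86.6 and 65.7 in R6/2 control and 58.2 and 55.9 in R6/2 vehicle mice. Its mean was highest in the R6/2 control group (76.1 CPM), but R6/2 HS mouse 1 (79.3 CPM) was above R6/2 control mouse 2. Its R6/2 vehicle mice stood just above both wild type vehicle mice. The log2 fold change was 0.43 ± 0.14 (adjusted p = 0.0327), and the call remained in 1 of 8 fits that left out a mouse, the one without R6/2 control mouse 2 (adjusted p = 0.0176 to 0.155 over the 8). Control minus vehicle mice, the R6/2 effect on Map1lc3a differed by 0.61 ± 0.29 (adjusted p = 0.94), with 0% of all genes and 0 of the 10 called. At an unadjusted p below 0.05 there were 2 of the 10 and 727 of all genes in this difference, and DESeq2 called 0 of the 10.

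Lamp2, a major glycoprotein of the lysosomal membrane (gene 16784, mm9 chrX:35754534-35809631), was at 52.8 and 56.5 CPM in wild type control, 47.3 and 44.9 in wild type vehicle, 75.3 and 61.0 in R6/2 control and 58.5 and 55.3 in R6/2 vehicle mice. Within each experiment the R6/2 mice were higher. The log2 fold change was 0.31 ± 0.09 (adjusted p = 0.0186), and the call was lost without wild type control mouse 1, wild type vehicle mouse 2, R6/2 control mouse 1 or R6/2 vehicle mouse 1 (adjusted p up to 0.106).

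Taken by experiment, 4 of the 10 were called higher in R6/2 control mice (Ctsl, Map1lc3a, Becn1 and Map1lc3b, against 12.4% of all genes called and 5.5% called higher) and 3 in R6/2 vehicle mice (Ctsl, Becn1 and Map1lc3b, against 19.2% and 8.72%). In a fit of only the groups compared none of the 4 control mouse calls was kept (adjusted p = 0.0567 for Ctsl, 0.0608 for Map1lc3a, 0.0912 for Becn1 and 0.168 for Map1lc3b). That fit called 492 of all genes. In control mice the count was 2 without wild type control mouse 1 and 1 without wild type control mouse 2 or R6/2 control mouse 1. In vehicle mice it was 1 without wild type vehicle mouse 1. Bnip3 moved the other way. This receptor for mitochondria (gene 12176, mm9 chr7:146082519-146101202) was at 90.6 and 99.0 CPM in wild type vehicle and 59.0 and 56.3 in R6/2 vehicle mice, with no overlap, and its log2 fold change was −0.72 ± 0.25 (adjusted p = 0.0584, and 0.0256 with DESeq2). In the control mice Bnip3 overlapped, at 72.5 and 47.2 CPM in wild type and 68.7 and 43.4 in R6/2 (−0.09 ± 0.25).

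The HS and HSP990 mice, which the untreated comparison did not use, gave a further reading of the genotype. In HS mice 3 of the 10 were called, all higher in R6/2 (Ctsl 0.88 ± 0.16, Lamp2 0.64 ± 0.13 and Map1lc3b 0.35 ± 0.10), where 12% of all genes were called and 5.66% higher. Gabarapl1 had the opposite sign there, with both R6/2 mice (76.4 and 86.3 CPM) below both wild type mice (137 and 109), and was called lower with the replicate block (adjusted p = 0.0351) and with DESeq2 (adjusted p = 0.0378) but not in the fit used here (−0.60 ± 0.21, adjusted p = 0.0758). In HSP990 mice 5 were called, 4 higher (Ctsl 0.76 ± 0.16, Tfeb 0.57 ± 0.15, Map1lc3b 0.41 ± 0.10 and Becn1 0.40 ± 0.11) and 1 lower (Bnip3, −0.85 ± 0.26, adjusted p = 0.0452, but 0.0561 with the replicate block and 0.359 with library size only), where 9.55% of all genes were called, 4.25% higher and 5.29% lower. Of the HSP990 calls only Ctsl and Map1lc3b were found in any fit that left out a mouse, each in 1 of 4. The HS count was 1 without wild type HS mouse 1. The HSP990 count was 0 without wild type HSP990 mouse 1 or 2 or R6/2 HSP990 mouse 2, and 2 without R6/2 HSP990 mouse 1. Ctsl was at 178 and 189 CPM in wild type HS and 367 and 309 in R6/2 HS mice, and at 141 and 137 in wild type HSP990 and 230.0 and 238 in R6/2 HSP990 mice. The 12 macrophage markers summed to 111 and 113 CPM in wild type HS, 166 and 100.4 in R6/2 HS, 118 and 164 in wild type HSP990 and 89.1 and 94.7 in R6/2 HSP990 mice, and their part in the Ctsl differences was not tested.

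Over the 4 treatments, Ctsl and Becn1 were higher in all 8 R6/2 mice than in all 8 wild type mice, as were 4.67% of all genes tested (9.57% did not overlap in either direction). The ranges of wild type and R6/2 mice overlapped for Map1lc3b (152 to 205 and 195 to 278 CPM) and Lamp2 (44.3 to 56.9 and 47.7 to 75.3). They also overlapped for Map1lc3a (41.6 to 58.3 and 43.7 to 86.6) and Bnip3 (47.2 to 99.0 and 37.1 to 68.7). Sqstm1 (p62, gene 18412, mm9 chr11:50012868-50024329) ranged from 737 to 1041 CPM (median 881) in wild type and from 783 to 1092 (median 878) in R6/2 mice, which overlap almost fully.

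**Figure D3:**
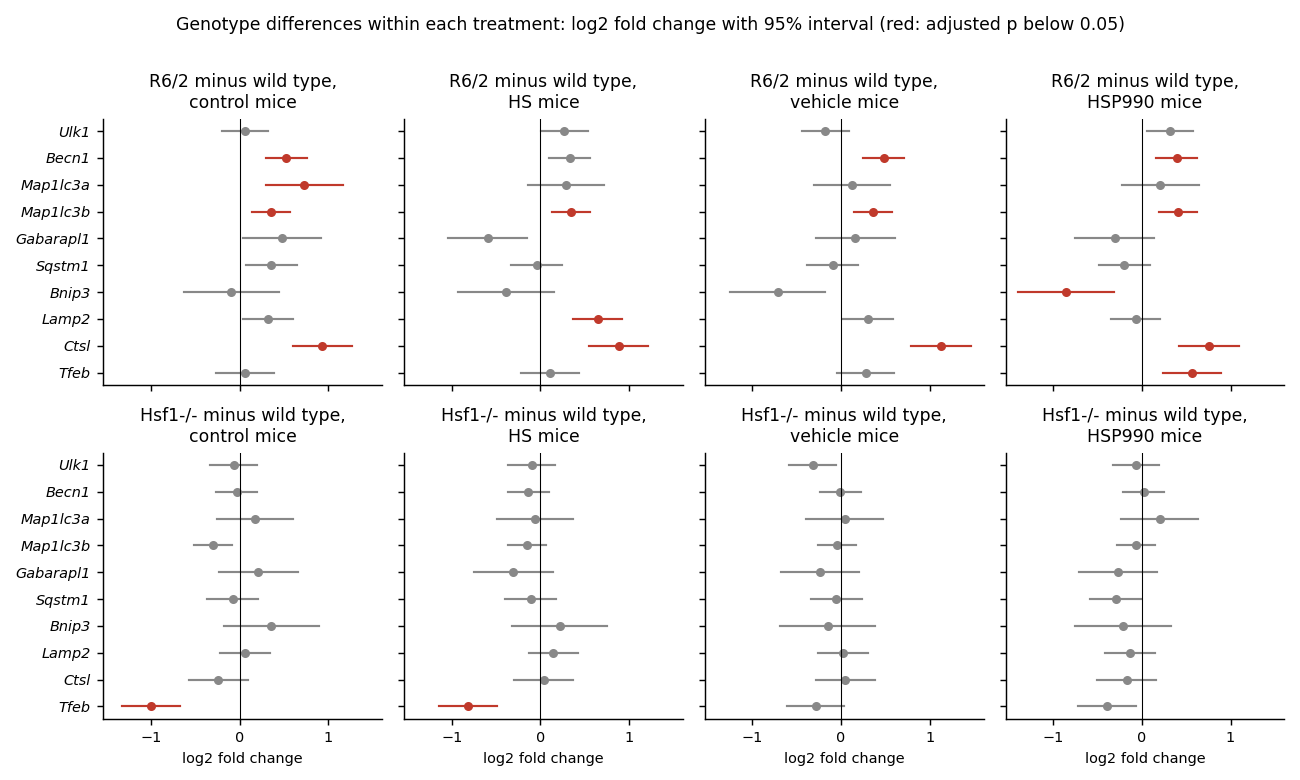
log2 fold change (x axis, 95% interval) of the 10 genes in R6/2 minus wild type (top) and Hsf1-/- minus wild type mice (bottom), within control, HS, vehicle and HSP990 mice, in red where the edgeR adjusted p was below 0.05. Ctsl and Map1lc3b were called in all 4 R6/2 panels, and Tfeb in the control and HS panels of Hsf1-/- mice.

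In Hsf1-/- mice 1 of the 10 genes differed from wild type when untreated, Tfeb, which was lower (0.974% of all genes were called and 0.691% called lower). Tfeb (gene 21425, mm9 chr17:47873979-47929368, named Tcfeb in the annotation used) was at 162 and 164 CPM in wild type control and 85.2 and 78.1 in Hsf1-/- control mice. In vehicle mice it was at 131 and 125 CPM in wild type and 91.6 and 118 in Hsf1-/-. Both Hsf1-/- mice were below both wild type mice in each experiment. The log2 fold change was −0.64 ± 0.11 over both experiments (adjusted p = 0.00995), and the call was lost without wild type control mouse 2, wild type vehicle mouse 1 or Hsf1-/- control mouse 2 (adjusted p up to 0.053). In control mice alone it was −0.996 ± 0.16 (adjusted p = 0.00704, with 1.93% of genes called and 1.17% called lower), and 0 of the 10 genes were called without wild type control mouse 1 or 2 or Hsf1-/- control mouse 2. In vehicle mice alone it was −0.29 ± 0.15 (adjusted p = 0.61, with 0.0872% called), and none of the 10 was called there. At an unadjusted p below 0.05 there were 1 of the 10 and 1259 of all genes. DESeq2 called 0 of the 10 and 105 of all genes. The difference between the 2 experiments was −0.71 ± 0.22 for Tfeb (adjusted p = 0.195, with 0.0654% of all genes and 0 of the 10 called). At an unadjusted p below 0.05 there were 1 of the 10 and 1910 of all genes, and DESeq2 called 0 of the 10.

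After treatment the order of the Tfeb levels was the same. HS mice had 180 and 198 CPM in wild type and 111 and 104 in Hsf1-/- (−0.81 ± 0.15, adjusted p = 0.0124, with 0.967% of genes called and 0.676% called lower), a call that was lost with any of the 4 mice left out. HSP990 mice had 105.0 and 122 CPM in wild type and 75.1 and 98.3 in Hsf1-/- (−0.39 ± 0.15, adjusted p = 0.29, with 1.64% called). At an unadjusted p below 0.05 there were 2 of the 10 and 1655 of all genes, and DESeq2 called 0 of the 10. Over all treatments Tfeb ranged from 105 to 198 CPM in wild type and from 75.1 to 118 CPM in Hsf1-/- mice, which overlap. The HS and control mice are those in which the 2 genotypes also differed in Y-linked counts. In the vehicle and HSP990 mice, where both genotypes had Y-linked counts, the differences were −0.29 and −0.39, and the Hsf1-/- mice were 8 and the wild type mice 12 weeks old. The part of Y-linked expression or age was not tested. In R6/2 mice Tfeb was at 157 and 183 CPM without and 226 and 182 CPM with HS, and at 145 and 165 CPM with vehicle against 179 and 157 CPM with HSP990, and the differences from wild type were 0.06 to 0.57 on the log2 scale.

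The rest of the pathway was described with 8 lists by role, holding 174 further genes of which 167 were tested. In the HS response of wild type 3 of the 167 rose and 0 fell (1.8%, against 2.06% of all genes), and these were Ddit4, Foxo1 and Sesn1. With DESeq2 5 rose and 1 fell (542 of all genes called), and with only the groups compared 6 rose (598 of all genes called). Ddit4, a stress-induced inhibitor of the kinase mTORC1, was at 8.14 and 10.9 CPM in wild type control and 506 and 492 in wild type HS mice (log2 fold change 5.71 ± 0.97, adjusted p = 0.00466). Foxo1, a forkhead transcription factor active in fasting muscle, was at 12.7 and 15.4 CPM and then 79.0 and 76.4 (2.46 ± 0.54, adjusted p = 0.0223). Sesn1, a sestrin that also restrains mTORC1, was at 33.95 and 37.8 CPM and then 112 and 114 (1.65 ± 0.39, adjusted p = 0.0348). None of these groups overlapped. With a control mouse left out the call for Ddit4 was lost (adjusted p up to 0.12), and those for Foxo1 and Sesn1 were lost with any mouse left out. Of the 167, 0 were called by edgeR in the HS response of R6/2 or Hsf1-/- mice, against 0.0436% and 0.00727% of all genes. At an unadjusted p below 0.05 there were 11 and 13 of the 167, and 1117 and 1211 of all genes. DESeq2 called 0 and 2 of the 167, and 127 and 161 of all genes. Ddit4 was at 98.1 and 14.7 (R6/2 control), 320 and 273 (R6/2 HS), 29.5 and 46.6 (Hsf1-/- control) and 172 and 292 CPM (Hsf1-/- HS). In the same order Foxo1 was at 25.04 and 14.81, 70.68 and 51.89, 16.96 and 16.16, and 36.88 and 39.49 CPM. Sesn1 was at 68.63 and 49.99, 96.39 and 93.32, 37.38 and 26.89, and 139.7 and 44.3 CPM. None of the 3 genes passed the test in these genotypes. The 3 were named for their calls in wild type, so these values are a description only.

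After HSP990, 2 of the 167 rose in wild type mice (1.2%, against 1.85% of all genes). Stbd1, which links glycogen to autophagosomes, went from 89.5 and 73.6 to 168 and 162 CPM (1.02 ± 0.17, adjusted p = 0.00401, lost without wild type vehicle mouse 2). The second was Gusb, a lysosomal glucuronidase (0.63 ± 0.16, adjusted p = 0.0491, lost under 3 of 8 other settings and with any mouse left out). In R6/2 mice 1 of 167 fell (0.599%, against 1.43% of all genes), Ddit4, from 50.1 and 281 to 4.99 and 7.09 CPM (−4.77 ± 0.93, adjusted p = 0.0137, lost without R6/2 vehicle mouse 2 or either HSP990 mouse). The number that fell was 3 with DESeq2 or without a filter, 2 with library size only and 0 with only the groups compared. These settings called 376, 217, 210 and 8 of all genes in the same order. In Hsf1-/- mice 1 of 167 rose (0.599%, against 0.218%), Sesn2, a stress-induced sestrin, from 4.10 and 3.78 to 57.2 and 92.4 CPM (4.25 ± 0.29, adjusted p = 7.99e-07). With a mouse left out the change was 3.86 to 4.56. Sesn2 was not called in a fit of only these groups, where 0 of all genes were called.

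**Figure D4:**
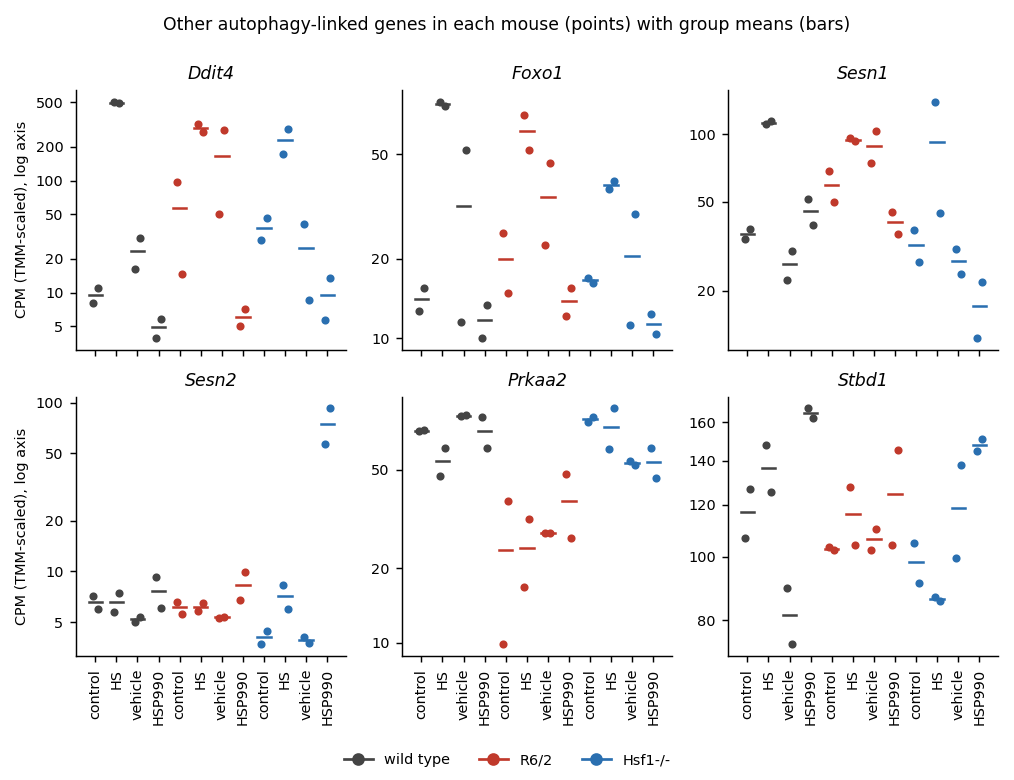
Level (y axis, TMM-scaled CPM on a log axis) of 6 other genes of the pathway in each mouse (points) with group means (bars), for wild type (grey), R6/2 (red) and Hsf1-/- mice (blue). Ddit4, Foxo1 and Sesn1 were highest in wild type HS mice among the wild type groups, and Sesn2 was above 50 CPM only in the 2 Hsf1-/- HSP990 mice.

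In untreated R6/2 mice 31 of the 167 other genes were called higher and 24 lower (32.9%, against 30.5% of all genes), a share close to that of all genes and spread over both directions. Their median log2 fold change was 0.05, as was that of all genes. Under library-size scaling the split was 141 higher and 4 lower, with 8876 of all genes called. Lysosomal hydrolases had 7 higher and 4 lower of 44, membrane and sorting genes 5 and 4 of 24, and the vacuolar ATPase, which acidifies the lysosome, 4 and 4 of 18. Genes of initiation and nucleation had 3 higher and 4 lower of 16, receptors 3 and 2 of 16, fusion genes 3 and 2 of 12, regulators 6 and 3 of 25, and the conjugation enzymes and ATG8 proteins 0 and 1 of 12.

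Of the 5 largest changes among those of the 167 that were called, 3 were in regulators. Ddit4 was higher in untreated R6/2 mice (2.68 ± 0.60, adjusted p = 0.00279), with values that overlapped, at 98.1 and 14.7 CPM in R6/2 control and 50.1 and 281 in R6/2 vehicle mice against 8.14 to 30.98 in untreated wild type mice. The change was 1.71 without R6/2 control mouse 1 and 1.82 without R6/2 vehicle mouse 2. Sesn1 was also higher (1.24 ± 0.27, adjusted p = 0.00236). Prkaa2, the muscle-rich catalytic subunit of the energy sensor AMPK, was lower, at 71.5 and 72.2 CPM in wild type control and 82.0 and 82.8 in wild type vehicle mice but 9.87 and 37.4 in R6/2 control and 27.8 and 27.7 in R6/2 vehicle mice (−1.59 ± 0.30, adjusted p = 0.000868). Vamp8, a fusion protein of the autophagosome pathway, was also lower (−1.04 ± 0.17, adjusted p = 0.000231). All 4 calls were kept with any mouse left out. Acp5, a phosphatase, was lower too (−1.97 ± 0.52, adjusted p = 0.00844), but not without wild type vehicle mouse 2.

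By experiment, 9 of the 167 were called higher and 9 lower in R6/2 control mice (10.8%, against 12.4% of all genes), and 21 higher and 20 lower in R6/2 vehicle mice (24.6%, against 19.2%). Scaled by library size only these were 109 and 1 in control and 130 and 0 in vehicle mice, where 6010 and 7652 of all genes were called. With only the groups compared they were 1 and 2 in control and 11 and 11 in vehicle mice, where 492 and 1968 of all genes were called. Lgmn, the lysosomal protease legumain, was at 32.8 and 32.7 CPM in wild type vehicle and 78.5 and 76.9 in R6/2 vehicle mice, with no overlap (1.25 ± 0.20, adjusted p = 0.000384, called with any mouse left out). Like Ctsl, it is a protease that macrophages also make. The 12 macrophage markers summed to 78.0 to 79.4 CPM in wild type vehicle and 114 to 138 CPM in R6/2 vehicle mice. In HSP990 mice Lgmn was at 49.75 and 41.3 CPM in wild type and 64.2 and 77.85 in R6/2. The markers there summed to 118 and 164 CPM in wild type and 89.1 and 94.7 in R6/2. The part of macrophages in the Lgmn difference was not tested. Calcoco1, a receptor of the reticulum, was at 150.0 and 149.6 CPM in wild type control and 324 and 222 in R6/2 control mice (0.87 ± 0.16, adjusted p = 0.00262, lost without R6/2 control mouse 1). In HS mice 11 of the 167 were higher and 5 lower in R6/2 (9.58%, against 12% of all genes), led by Sesn3, another sestrin, which was lower (−2.47 ± 0.54, adjusted p = 0.00757, lost without wild type HS mouse 2 or R6/2 HS mouse 1). In HSP990 mice 8 were higher and 6 lower (8.38%, against 9.55%), led by Retreg1, a receptor for the reticulum, which was lower (−1.35 ± 0.33, adjusted p = 0.0179, kept in 1 of 4 fits that left out a mouse).

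**Figure D5:**
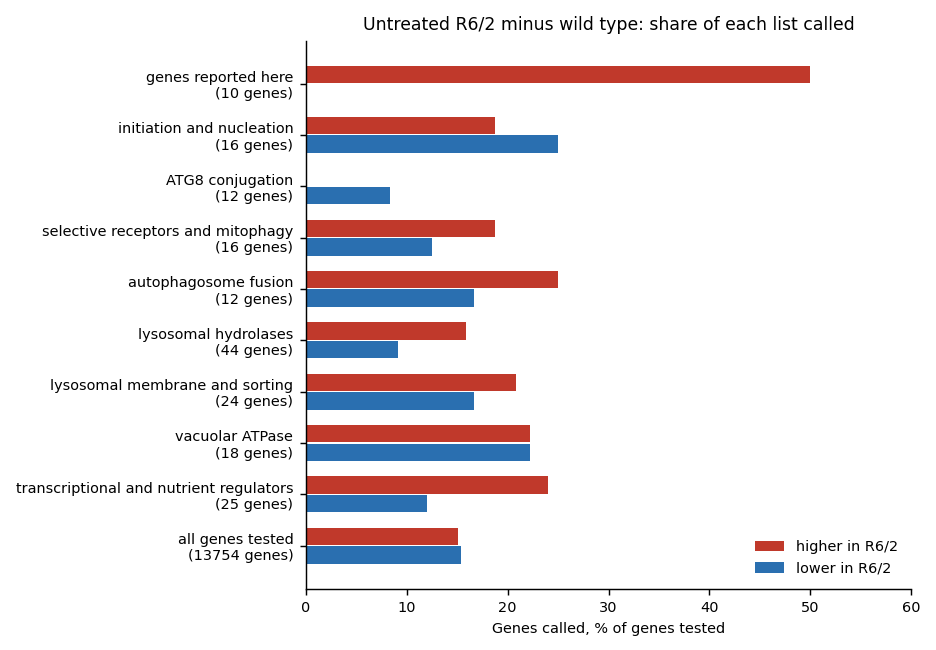
Share of tested genes called higher (red) or lower (blue) in untreated R6/2 minus wild type mice (x axis, % of genes tested, from 0), for the 10 genes reported here, 8 lists of other genes by role, and all 13754 genes tested. The 10 genes had 50% called higher and 0% lower, and all genes 15.1% and 15.4%. The 10 genes were chosen with earlier results of these data known.

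In untreated Hsf1-/- mice 1 of the 167 was called, Sort1, a sorting receptor for lysosomal proteins, which was higher (0.46 ± 0.10, adjusted p = 0.036, kept in 2 of 8 fits that left out a mouse). This is 0.599% of the list, against 0.974% of all genes. With DESeq2 3 were higher and 6 lower, and with library size only or only the groups compared 0 were higher and 1 was lower. These settings called 369, 132 and 126 of all genes in the same order. In the control mice alone 1 was higher and 4 were lower (2.99%, against 1.93% of all genes). With only the groups compared these were 7 and 9 (766 of all genes called), and with DESeq2 2 and 8 (733 of all genes called). The 4 called lower by edgeR were the V-ATPase subunits Atp6v1f (−0.63 ± 0.15) and Atp6v0b (−0.52 ± 0.10), Atg101 of the Ulk1 complex (−0.63 ± 0.14) and Lamtor2 of the lysosomal scaffold for mTORC1 (−0.62 ± 0.10). Leaving out a mouse ended the calls of all of these but Lamtor2, which remained in 1 of 4 fits. In the vehicle mice alone 0 of the 167 were called by edgeR, against 0.0872% of all genes, and 0 by DESeq2. At an unadjusted p below 0.05 there were 20 of the 167 and 1259 of all genes.

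Each gene was compared with the 11102 genes at a mean of at least 1 CPM for likeness of pattern, as Pearson's r of log2(CPM + 0.5) over the 12 group means. Becn1 was most like Vps53 (0.99), Map1lc3b most like Prkcq (0.98), Ctsl most like Zdhhc14 (0.98) and Tfeb most like H2aj (0.97). Bnip3 was most like Tmem37 (0.94) and next to it Optn (0.94), which encodes another autophagy receptor. Ulk1 (0.87, Ubl3) and Gabarapl1 (0.84, Tmc7) had no gene as close. The group means share the genotype shift of R6/2, and these values describe the 12 groups only.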

How the data were processed

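The authors prepared strand-specific paired-end libraries from polyA RNA, mapped the reads to mm9 with Bowtie and deposited raw counts per gene, with whole numbers in 1 column per mouse. The counting program and annotation are not given in the sources used here. NCBI gene numbers were matched to symbols for 18594 of 18669 genes. Depth was 22450177 to 46599238 counts per library, and the 2 mice of a group differed by more than counting error (chi-square per degree of freedom 19.4 to 111). This value was 24.45 to 33.71 in wild type, 54.55 to 110.8 in R6/2 and 19.42 to 79.4 in Hsf1-/- groups. The fit pooled the spread over groups that differed in it.

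The 13754 genes that reached 2 counts in 10 or more libraries were scaled with TMM and fitted as 12 groups with edgeR 4.0.16 (limma 3.58.1, R 4.3.3), using quasi-likelihood tests with 12 residual degrees of freedom. Benjamini-Hochberg adjustment covered all tested genes within a comparison, at a threshold of 0.05. An exact permutation test of 2 against 2 mice cannot go below p = 0.333 and was not used. The ± values after log2 fold changes are SE. The fits were tested on simulated counts with 200 planted changes, in genes drawn from all those tested. In the HS response of wild type, 45 of 100 planted log2 changes of size 1 and 77 of 100 of size 2 were called. In untreated R6/2 minus wild type these were 63 and 76 of 100. Of all calls, 3.17% and 5.44% were genes without a planted change.

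The 10 genes and the lists were chosen with earlier results of these data known. The genes named beyond them were, by rule, up to 5 called list genes with the largest change per comparison, the 3 genes most alike in pattern, Hsf1 and chaperones as checks. The 9 comparisons chosen after seeing the data were genotype differences within HS and within HSP990 mice, vehicle minus control in each genotype, and the untreated genotype differences of control minus vehicle mice. As alternatives, DESeq2 1.42.0, a replicate block, a fit of only the groups compared, scaling by RLE factors or by library size alone, filterByExpr or no filter in place of the filter, and leaving out each mouse were tried, and later also TMM factors computed without the 20 highest genes. Gene positions and exon lengths came from GENCODE M1 on mm9, and 40-base words of exons were searched for in that genome, matching the 40-base reads. Promoters came from RefSeq on GRCm38.p6.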

Additional observations from a re-analysis of the deposited data

Results flagged for a closer look

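The response of Sesn2, the stress-induced sestrin, to HSP990 differed between genotypes by the test of the difference itself. The HSP990 response of Hsf1-/- mice minus that of wild type mice was 3.69 ± 0.38 (SE) on the log2 scale (adjusted p = 5.45e-05 by edgeR's quasi-likelihood test, with 0.422% of all genes called). Sesn2 was at 5.05 and 5.39 CPM in wild type vehicle and 9.33 and 6.05 in wild type HSP990 mice, against 4.10 and 3.78 and then 57.2 and 92.4 in Hsf1-/- mice. The call was kept under each of 8 other settings and in each of 8 fits that left out a mouse (3.31 to 4.03). The Hsf1-/- mice of this experiment were 8 weeks old and the wild type mice 12 weeks old, and the part of age was not tested.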

How the results depend on the processing

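Of 280 values (10 genes in 28 comparisons), 280 kept their call with RLE size factors, 280 with filterByExpr, 280 without the 20 highest genes in the TMM factors, 279 without a filter, 277 with the replicate block, 273 with DESeq2, 267 with only the groups compared and 256 with library size only. Of the 10 genes, the number called in the HS response of wild type mice was 1 in place of 0 with the replicate block, with only the groups compared and with DESeq2. It was 1 with DESeq2 in the HSP990 response of wild type and in vehicle minus control of wild type, and 1 with DESeq2 and with only the groups compared in the HS minus HSP990 response of wild type. With library size only it was 9 in untreated R6/2 minus wild type, 9 in its control mice, 9 in its vehicle mice and 8 in HS mice. Of all genes 8876, 6010, 7652 and 6474 were called there. With only the groups compared the number of the 10 was 0 in the control mice, 1 in HS mice and 2 in HSP990 mice, with 492, 340 and 601 of all genes called. With DESeq2 it was 5 in HS mice, with 2125 of all genes called. Library-size scaling also turned the sign of Ulk1 (0.55, and 0.49 in vehicle mice), of Sqstm1 (0.58 in vehicle mice and 0.52 in HS mice) and of Lamp2 (0.49 in HSP990 mice), all below the median of all genes under that scaling (0.55 to 0.74). Leaving out each mouse, the counts ranged from 3 to 6 in untreated R6/2, 1 to 6 in control mice, 1 to 3 in vehicle mice, 1 to 3 in HS mice and 0 to 2 in HSP990 mice, and for Hsf1-/- minus wild type from 0 to 1 untreated, 0 to 1 in control mice and 0 to 0 in HS mice.

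Same-numbered mice of 2 groups had correlations of deviations of −0.20 to 0.24, not all over 0.1, so the numbers were not taken as pairs. The replicate block moved the count of all genes called from 283 to 280 in the HS response of wild type, from 266 to 185 in Hsf1-/- minus wild type control mice and from 1 to 9 in the HS response of Hsf1-/-, and the count of the 10 genes from 3 to 4 in HS mice and from 5 to 4 in HSP990 mice of R6/2 minus wild type. A crossed block in the 5 comparisons below −0.1 called 229, 10, 25, 221 and 33 of all genes and 0 of the 10 genes. The number of all genes called in the HS response of wild type was 598 with only the groups compared and 542 with DESeq2, and 40 to 123 with a mouse left out. In untreated R6/2 it was 8876 with library size only, against 4194. In untreated Hsf1-/- it was 369 with DESeq2 and 29 to 72 with a mouse left out, against 134. The other list genes called higher in the HS response of wild type numbered 6 with only the groups compared and 5 with DESeq2, against 3. With DESeq2 1 more was called lower. With 2 mice a group, a gene that was not called is not shown to be unchanged. Depth did not limit the 10 genes, which were all at 37.1 CPM or more in every mouse.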
